A study of Arabidopsis thaliana with 6 samples.

Results

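The genes described here are 40 Arabidopsis thaliana genes annotated with DNA-binding transcription factor activity that the study's authors listed as higher or lower in plants overexpressing the NAC factor ANAC069 than in plants lacking it. They are 40 of the 541 genes that the authors' deposited up and down tables name by a single gene identifier, and 40 of the 64 among those that carry the transcription factor term. The other 24, among them ANAC069 itself, RD26, DREB2A and MYC2, were left out by name. Of the 40, 33 stood in the up table, which lists genes higher in the overexpression line, and 7 in the down one. The values that chose them were the authors' fold of at least 2 and unadjusted p of at most 0.05 for that contrast, so the size and direction of the differences below are a description of selected genes and support nothing by themselves.

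The set had been proposed as factors outside the WRKY, NAC and ERF families, and the gene names went against that label. Of the 40 genes, 6 were WRKY, 6 NAC, 7 AP2/ERF and 2 RAV genes. A further 14 belonged to 8 other families (MYB, zinc finger, heat shock factor, bZIP, GRAS, B3, bHLH and HMG-box), and for 5 neither the deposited tables nor RefSeq gave a family. These 5 may belong to a family named here, so the counts by family are lower bounds. The genes are therefore called the remaining transcription factor genes.

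The tested plants (OE) carried ANAC069 overexpression (line OE-3), and those they were compared with (KO) carried a knockout of the same gene, the insertion line KO-2. Each genotype was 1 line, and the labels do not name the promoter that drove the overexpression. All plants were 4 weeks old and had received 200 mM NaCl for 3 h, so no plant analysed here was without salt and none was wild type. Total RNA was read on 6 ATH1 arrays, 3 of each genotype, which the study describes as independent biological replicates. The labels name no tissue.

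Transcription factors bind short DNA motifs near genes and raise or lower their transcription, and plants carry large families of them. WRKY proteins bind the W-box, ERF proteins the GCC-box, and heat shock factors the heat shock element. Many of these genes are themselves switched on fast and for a short time by wounding, microbial molecules such as chitin, ethylene, heat or salt, so their transcripts are known as early stress markers.

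Values are signals, the brightness of a probe set scaled by the authors, and a signal may be set against that of another array but not against that of another gene. Differences are OE minus KO on the scale of log2(signal + 16), with the standard error of a limma fit over 15922 probe sets. In RNA from many cells, more transcript per cell and more cells of a type cannot be told apart. ANAC069 itself, which checks the labels, had signals of 2991, 2386 and 2360.2 on the OE arrays, against 386, 364 and 391 on the KO arrays. The KO signal was not low, and the labels do not place the probes beside the insertion.

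As a sign of RNA quality, the mean log2 ratio of 3′ to 5′ signal over 6 ratios of the control genes was 1.97, 1.94 and 1.73 on OE replicates 1, 2 and 3, against 1.80, 1.57 and 1.53 on KO replicates 1, 2 and 3. It ran higher in OE, with KO replicate 1 above OE replicate 3, and its part in the differences below was not tested beyond a fit that holds it as a covariate. Across the probe sets tested, which are not independent of each other, log2 values of arrays of 1 genotype correlated at 0.948 to 0.971, and those of arrays of different genotypes at 0.916 to 0.955.

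In all 33 genes of the up table the dimmest OE array was above the brightest KO array, and in all 7 of the down table the brightest OE array was below the dimmest KO array. Over all probe sets tested, 12.9% had every OE array above every KO array and 18.3% had every OE array below every KO array. Since these genes were chosen on this contrast, nothing is read from their count. The distance between the groups varied more: the higher group's lowest array was 3.24-fold the lower group's highest array for HSFA4A, but 1.14-fold for ORS1. In 22 of the 33 genes of the up table that gap was over 1.5-fold. The share of all probe sets with such a gap was not computed and the choice favoured wide gaps, so nothing is read from that count either.

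**Figure D1:**
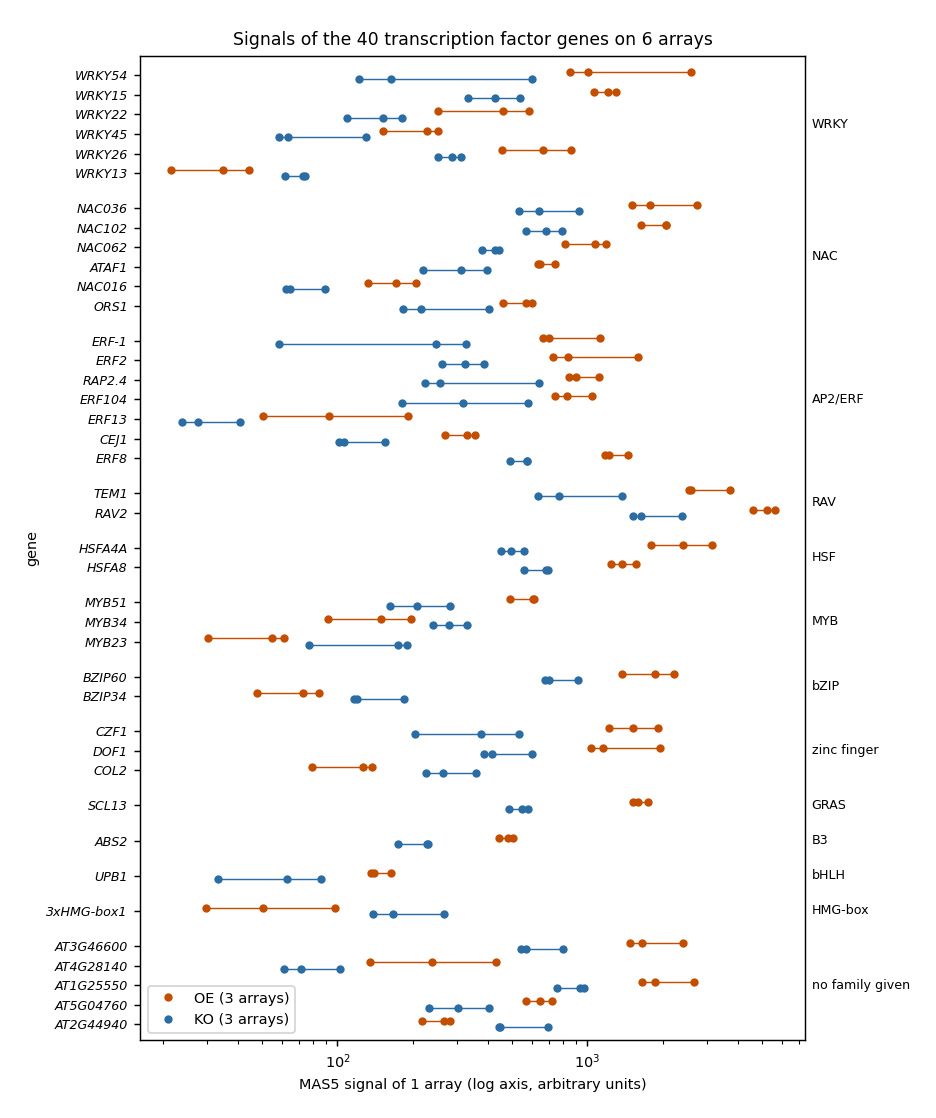
Signals of the 40 transcription factor genes on each of the 6 arrays (log axis, arbitrary units), grouped by family, with OE drawn above KO. Each point is 1 array and each line spans the 3 arrays of a genotype. The groups lie far apart for HSFA4A, SCL13 and NAC102 and close together for ORS1 and RAP2.4, and the KO arrays of ERF-1 and WRKY54 are the most widely spread.

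The largest difference among the 40 was that of WRKY54, a factor that acts with WRKY70 in salicylic acid signalling and leaf senescence (probe alignment chr2:17000635-17002354, minus strand, in the authors' deposited table, whose genome build is not stated). Its signals were 853, 1003 and 2592 on the OE arrays, against 122, 164 and 603 on the KO arrays. Replicate 3 was the brightest array of both genotypes, and its KO signal came within 1.41-fold of the dimmest OE signal. The log2 difference was 2.41 (SE 0.58), and with each array left out in turn it lay between 1.92 and 3.07. With the controls' 3′ to 5′ ratio in the fit as a covariate, it was 3.98.

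WRKY15, linked to osmotic and oxidative stress, gave tighter signals of 1190 ± 118 in OE and 432 ± 101 in KO (SD, n = 3 each), a log2 difference of 1.45 (SE 0.18). WRKY22, a factor downstream of MAP kinases in flagellin responses, differed by 1.40 (SE 0.30). WRKY45, known for raising phosphate uptake, differed by 1.22 (SE 0.30), and WRKY26, one of a group that supports heat tolerance, by 1.13 (SE 0.23), or by 0.73 with the ratio covariate. WRKY13, which promotes lignified supporting tissue in stems, was the only WRKY gene of the set in the down table. Its signals were 34.8, 44.4 and 21.5 on the OE arrays, against 61.6, 72.7 and 73.9 on the KO arrays, all toward the dim end of the arrays, and the log2 difference was -0.81 (SE 0.29), or -0.46 with a pseudocount of 64 in place of 16.

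All 6 NAC genes were in the up table, with log2 differences between 1.05 and 1.49. NAC036, known from overexpressing plants for an effect on leaf and stem growth, had the largest. Its signals were 1510, 2735 and 1785 on the OE arrays, against 533, 930.1 and 641 on the KO arrays. Replicate 2 was the brightest in both genotypes, and the groups were 1.62-fold apart at their nearest.

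NAC102, linked to germination at low oxygen, had signals of 1926 ± 242 in OE and 683 ± 111 in KO (SD, n = 3 each), with a log2 difference of 1.48 (SE 0.16). NAC062, a factor held at membranes and released under stress, differed by 1.25 (SE 0.17). ATAF1, a regulator in abscisic acid and senescence pathways, differed by 1.11 (SE 0.21). NAC016, which promotes senescence, differed by 1.08 (SE 0.23). ORS1, a senescence factor too, had signals of 542 ± 72.5 in OE and 267 ± 119 in KO (SD, n = 3 each). Its KO replicate 2 stood at 404, close under the dimmest OE array at 460.3.

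Among the 7 genes given as AP2/ERF, all in the up table, ERF-1 (chr4:9759644-9760211, plus strand) had the largest difference. ERF-1 is an activator that binds the GCC-box of defence genes. Its signals were 705, 1125 and 666 on the OE arrays, against 58.3, 326 and 248 on the KO arrays. The 3 KO arrays alone spanned 5.59-fold, with KO replicate 1 far below the other two. The log2 difference was 2.13 (SE 0.51), and without KO replicate 1 it was 1.46. With the ratio covariate it was 3.04.

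ERF2, an activator related to ERF-1, had signals of 834, 1596 and 726 on the OE arrays, against 263, 386 and 323 on the KO arrays, a log2 difference of 1.58 (SE 0.28). As with ERF-1, replicate 2 was the brightest array of both genotypes. ERF13 was dimmer, at 92.5, 50.3 and 192 on the OE arrays, against 23.9, 27.7 and 40.9 on the KO arrays. Its OE arrays spanned 3.82-fold, the widest OE span among the genes of the up table, and its log2 difference of 1.30 (SE 0.41) ran between 0.87 and 1.70 with each array left out. It was 2.12 with the ratio covariate and 0.81 with a pseudocount of 64.

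RAP2.4 is a factor of light, ethylene and drought responses, and ERF104 a target of the MAP kinase MPK6 in immunity. Their KO replicate 2 was the brightest KO array, as it was for 19 of the 33 genes of the up table. That array stood at 640.1 for RAP2.4 and 581 for ERF104, while the dimmest OE arrays were at 845 and 744. Their log2 differences were 1.46 (SE 0.34) for RAP2.4 and 1.37 (SE 0.35) for ERF104, and that of ERF104 was 2.15 with the ratio covariate. CEJ1, a DREB-type factor annotated with response to cold and ethylene signalling, differed by 1.30 (SE 0.20). ERF8, a repressor, differed by 1.21 (SE 0.14), with signals of 1286 ± 153 in OE and 545 ± 48.1 in KO (SD, n = 3 each).

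Both RAV genes of the set, TEM1 and RAV2 (also called TEM2), encode repressors of the flowering gene FT. TEM1 had signals of 2544, 3734 and 2606 on the OE arrays, against 635, 1378 and 769 on the KO arrays, and a log2 difference of 1.71 (SE 0.28). RAV2 had signals of 5164 ± 507 in OE and 1851 ± 466 in KO (SD, n = 3 each), and a log2 difference of 1.50 (SE 0.18). KO replicate 2 was the brightest KO array for both genes and stayed well below every OE array.

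HSFA4A (chr4:10347768-10349051, minus strand), a heat shock factor linked to MAP kinase signalling and oxidative stress, had the widest clear gap between the genotypes. Its signals were 1802, 2407 and 3159 on the OE arrays, against 452, 557 and 494 on the KO arrays. The KO arrays lay close together, and the log2 difference of 2.23 (SE 0.20) ran between 2.03 and 2.43 with each array left out. With the ratio covariate it was 2.64. HSFA8, the only other heat shock factor found in the deposited tables, had signals of 1398 ± 161 in OE and 644 ± 77.2 in KO (SD, n = 3 each), with a log2 difference of 1.10 (SE 0.15).

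The MYB genes went in both directions. MYB51, a main activator of indolic glucosinolate synthesis, had signals of 489.9, 613 and 608 on the OE arrays, against 208, 282 and 162 on the KO arrays, a log2 difference of 1.35 (SE 0.21). MYB34, which acts on the same pathway and on tryptophan synthesis, was in the down table: its signals were 197, 91.4 and 149 on the OE arrays, against 279, 242 and 330 on the KO arrays. The nearest MYB34 arrays were 1.23-fold apart, and the log2 difference was -0.93 (SE 0.26).

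MYB23, which patterns leaf hairs and root hairs, was in the down table too. It had signals of 54.7, 30.5 and 61.4 on the OE arrays, against 77.3, 175 and 189.8 on the KO arrays. KO replicate 1 was near the OE arrays, and the log2 difference of -1.28 (SE 0.35) ran between -1.65 and -1.06 with each array left out. With the controls' 3′ to 5′ ratio as a covariate, the MYB23 difference was -0.48.

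The pair of bZIP genes likewise stood in opposite tables. BZIP60, a membrane-bound factor that is activated when unfolded proteins build up in the endoplasmic reticulum, had signals of 1374, 1871 and 2218 on the OE arrays, against 679, 914 and 701 on the KO arrays. Its log2 difference was 1.22 (SE 0.20). BZIP34, known from pollen wall formation, had signals of 84.1, 72.6 and 47.6 on the OE arrays, against 116, 120.1 and 184 on the KO arrays. Its log2 difference was -0.89 (SE 0.27).

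CZF1 (chr2:16772536-16774330, plus strand), a CCCH zinc finger gene also called SZF2 and linked to salt tolerance, was one of the 4 genes with a log2 difference over 2. Its signals were 1218, 1520 and 1910 on the OE arrays, against 205, 530.4 and 374 on the KO arrays. The KO arrays spanned 2.59-fold, yet the brightest of them was 2.30-fold under the dimmest OE array. The log2 difference was 2.09 (SE 0.31), and with the ratio covariate it was 2.90.

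DOF1, of the plant-specific DOF zinc finger family, had signals of 1380 ± 496 in OE and 468 ± 116 in KO (SD, n = 3 each) and differed by 1.50 (SE 0.26). COL2, a B-box gene close to the flowering regulator CONSTANS, was in the down table. Its signals were 137, 79.4 and 126 on the OE arrays, against 359, 227 and 264 on the KO arrays. The groups were 1.65-fold apart at their nearest, the widest gap of the down table's 7 genes, and the log2 difference was -1.21 (SE 0.24).

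SCL13, a GRAS protein of phytochrome B signalling, had the smallest standard error of the 40 genes. It had signals of 1520.4, 1592 and 1749 on the OE arrays, against 581, 487 and 548 on the KO arrays. The difference was 1.56 (SE 0.13) and kept between 1.49 and 1.62 with each array left out. ABS2, a B3 repressor of leaf and petal growth, had signals of 482, 445 and 505 on the OE arrays, against 175, 229.7 and 227 on the KO arrays, a log2 difference of 1.13 (SE 0.16).

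UPB1 (UPBEAT1), a bHLH factor that lowers peroxidase genes in roots, had signals of 140.3, 164 and 136 on the OE arrays, against 62.7, 86.1 and 33.2 on the KO arrays. Its OE arrays lay close together and KO replicate 3 was the dimmest, and the log2 difference was 1.14 (SE 0.29). The gene 3xHMG-box1, whose protein binds chromosomes in dividing cells, had the largest difference of the down table. Its signals were 97.5, 29.9 and 50.2 on the OE arrays, against 139, 166 and 266 on the KO arrays. The OE arrays alone spanned over 3-fold, and the log2 difference of -1.51 (SE 0.36) ran between -1.86 and -1.21 with each array left out.

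Of the 5 genes with no family given, AT4G28140 had the largest deposited fold. Its signals were 135, 239 and 431 on the OE arrays, against 71.3, 61.2 and 102 on the KO arrays, and its log2 difference was 1.48 (SE 0.37). AT3G46600, AT1G25550 and AT5G04760 were in the up table with log2 differences of 1.50 (SE 0.22), 1.18 (SE 0.20) and 1.03 (SE 0.20). AT2G44940 was in the down table, at 283, 219 and 268 on the OE arrays, against 697, 441 and 448 on the KO arrays. Its OE arrays lay close together, KO replicate 1 was the brightest, and the log2 difference was -0.98 (SE 0.21).

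**Figure D2:**
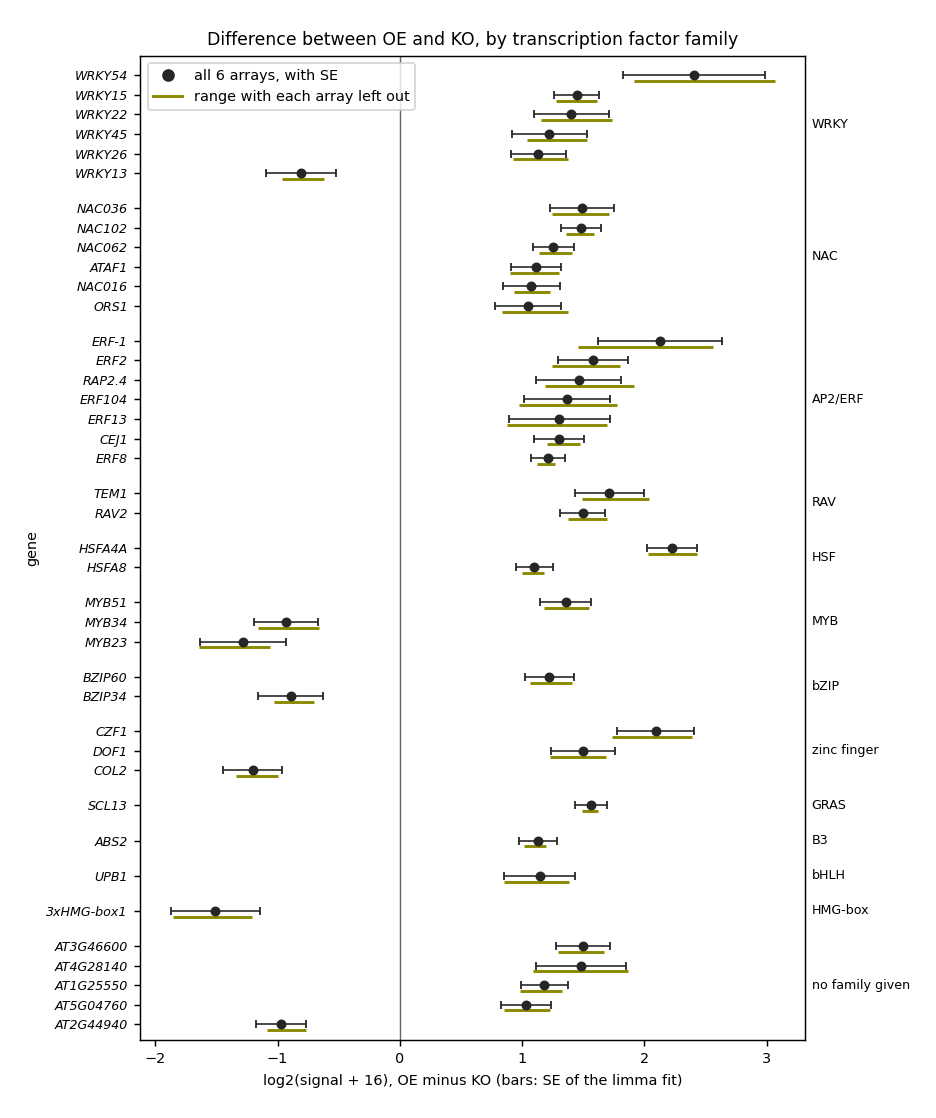
Difference between OE and KO in log2(signal + 16) for the 40 genes by family. Points and thin bars are the limma estimate and its SE over all 6 arrays, and olive bars span the estimates with each array left out in turn. No gene crosses 0 in any of these fits, which was fixed beforehand, since the OE and KO arrays overlap for none of the 40. WRKY54 and ERF-1 have the widest bars and SCL13 the narrowest.

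In the limma fit, 24 of the 33 genes of the up table were called higher in OE at a Benjamini-Hochberg adjusted p under 0.05, where 3.03% of all probe sets tested were called higher. Of the 7 genes of the down table, 2 were called lower, COL2 and AT2G44940, where 1.84% of all probe sets were called lower. The choice of the genes used this contrast, so nothing is read from these counts. By family, the calls took in 5 of the 6 NAC genes, 3 of the 7 AP2/ERF genes, 3 of the 5 WRKY genes of the up table and both genes of the RAV and heat shock factor families. WRKY54 and ERF-1, with differences over 2 and the largest standard errors of the set, were among the 14 genes not called.

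The median log2 difference was 1.37 over the 33 genes of the up table, with a range of 1.03 to 2.41, and -0.98 over the 7 of the down table, with a range of -1.51 to -0.81. Over all probe sets tested the median was -0.08. The other 285 tested probe sets of the deposited up table had a median of 1.29 and the other 217 of the down table -1.08, values near those of the transcription factor genes. The 23 transcription factor genes of the up table that were left out by name had a median of 2.46 and ran from 1.22 to 3.75. Both sets were chosen on this contrast, so the gap between their medians was not tested.

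The calls leaned on single arrays. Without OE replicate 2, 7 of the 33 genes were called higher, and without OE replicate 3, 9 were, while 0.415% and 0.553% of all probe sets were called higher there. Without KO replicate 1, 23 were called, and 3.44% of all probe sets. With that 3′ to 5′ ratio as a covariate, 12 were called, and 1.19% of all probe sets. Of the genes of the down table, 4 were called without OE replicate 1 or without KO replicate 1. Of all probe sets, 3.69% and 5.35% were called lower there, against 1.84% with all arrays. None of the genes was called in any of the 4 other fits that leave out an array, where 0.0440% to 0.232% of all probe sets were.

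A call at an adjusted p under 0.05 in limma with all arrays and with each left out in turn was found for 6 genes: HSFA4A, SCL13, RAV2, NAC102, NAC062 and ERF8. The share of all probe sets called in every one of these fits was not computed, so nothing is read from this count. WRKY54, absent from the calls with all arrays, was called without OE replicate 1 and without KO replicate 3. ERF-1 was called without KO replicate 1. RAP2.4, ERF104 and ORS1, whose KO replicate 2 was brightest, were called without that array.

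**Figure D3:**
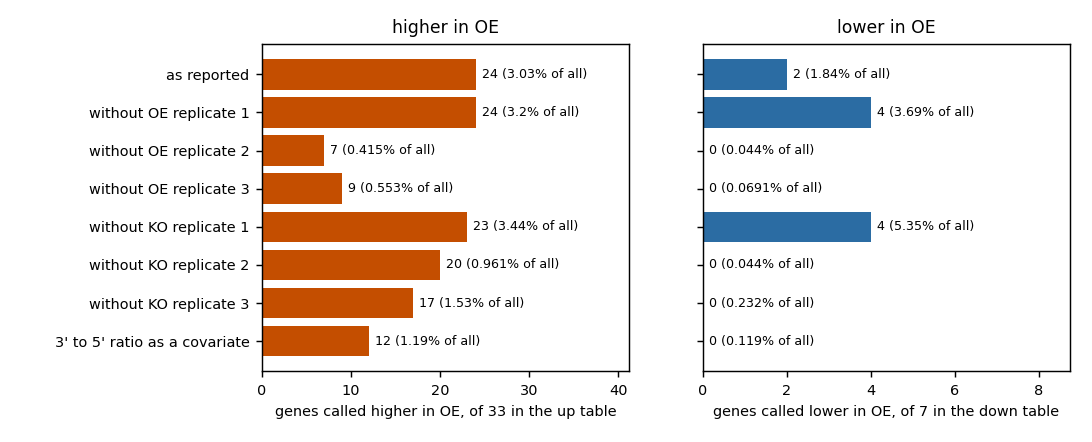
Number of the 33 genes of the up table called higher in OE (left) and of the 7 genes of the down table called lower in OE (right) at an adjusted p under 0.05 in limma, with all arrays, with each array left out and with the 3′ to 5′ ratio as a covariate. The percentages are the share of all probe sets called in the same direction in the same fit; leaving out OE replicate 2 or 3 takes the calls from 24 to 7 and 9.

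The order of the arrays within a genotype was not used to choose the genes, although the size of the spread was, through the authors' p-value. Within a genotype, each array's deviation from the mean of its 3 arrays showed a common order. KO replicate 1 was the lowest KO array for 22 of the 33 genes of the up table (66.7%), against 39.3% of all probe sets tested. KO replicate 2 was the highest KO array for 19 of the 33 (57.6%), against 31.1% of all probe sets. Both held at once for 13 genes, among them ERF-1, ERF2, RAP2.4, ERF104, TEM1, CZF1 and HSFA4A. The share of all probe sets for which both held was not computed. Genes that respond together are not independent, and 3 arrays of a genotype allow no test of this order.

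The order crossed families. KO replicate 1 was lowest for 5 of 7 AP2/ERF genes, 5 of 6 NAC genes and 4 of the 5 WRKY genes of the up table. It was also lowest for 16 of the 23 left-out transcription factor genes of that table. The median deviation over the 33 genes was -0.21 on KO replicate 1 and 0.15 on KO replicate 2, in log2 units. The extremes were ERF-1, at -1.34 on KO replicate 1 and 0.86 on KO replicate 2, RAP2.4, at 0.91 on KO replicate 2, and WRKY54, at 1.31 on KO replicate 3. Of the 3 KO arrays, replicate 1 had the highest 3′ to 5′ ratio of the controls, and the part of RNA quality in this order was not tested.

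Among the OE arrays, replicate 3 was the highest for 17 of the 33 genes (51.5%), against 30.6% of all probe sets, and replicate 1 was the lowest for 17. The same arrays led among the left-out transcription factor genes, where OE replicate 3 was highest and OE replicate 1 lowest for 15 of 23 each. The genes of the down table had another order: OE replicate 1 was the highest OE array and OE replicate 2 the lowest for 5 of 7 each. Of all probe sets, 35.1% and 33.7% had these arrays highest and lowest. With only 7 genes this order was not tested. Signals, whose spread the choice favoured when small, spanned over 2-fold among the KO arrays for 9 of the 33 genes of the up table and among the OE arrays for 5. The share of all probe sets with such spans was not computed. SCL13, ERF8 and NAC062 were the steadiest in KO, at 1.19-fold, 1.17-fold and 1.17-fold.

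**Figure D4:**
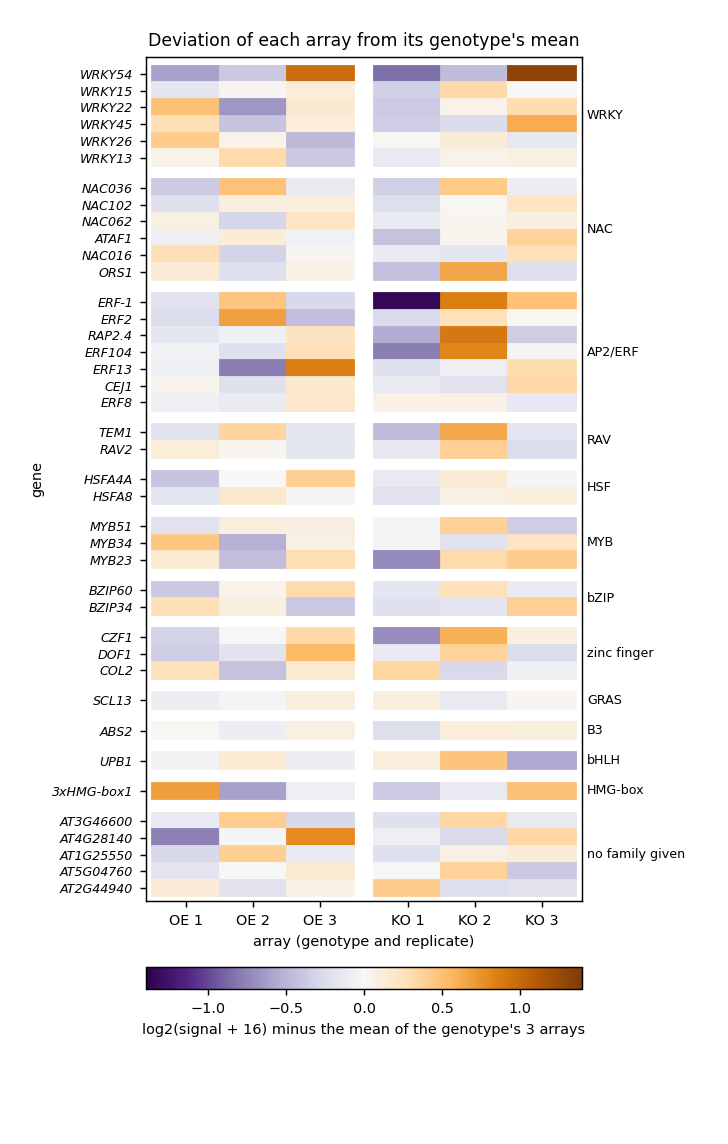
Deviation of each array from the mean of its genotype's 3 arrays in log2(signal + 16) for the 40 genes, by family. Orange is above the genotype's mean and purple below it. KO replicate 1 is purple and KO replicate 2 orange for many AP2/ERF genes, for TEM1 and for CZF1, and WRKY54 stands out on replicate 3 of both genotypes.

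The annotation of the deposited tables gave the genes further terms that the choice did not use. Its text is cut at a fixed length, so the counts are lower bounds, and they describe which terms the listed genes carry. Response to chitin, the fungal cell wall polymer that plants sense as a danger sign, was carried by 16 of the 33 genes of the up table (48.5%) and by none of the 7 of the down table. Among the left-out transcription factor genes 13 of 24 carried it (54.2%), and among the other 478 named genes 15 did (3.14%). Those 478 are not annotated as transcription factors. The share over all transcription factor genes of the arrays was not computed, so nothing is read from this difference. The 16 were spread over several families and included HSFA4A, CZF1, ERF-1, SCL13, BZIP60 and WRKY22.

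Ethylene-mediated signalling was carried by 10 of the 33 genes of the up table (30.3%): TEM1, RAV2, RAP2.4, ERF104, ERF8, CEJ1, ERF-1, ERF2, ERF13 and AT4G28140. In the down table AT2G44940 carried it. Among the left-out transcription factor genes 5 of 24 did, and among the other named genes 1 of 478. For this term too, the share over all transcription factor genes of the arrays was not computed. Response to water deprivation, by contrast, was carried by 0 of the 33 genes and by 8 of the 24 left out (33.3%). Response to abscisic acid was carried by 1, MYB51, and by 5 of the 24 left out. Which genes were left out by name sets this contrast in part.

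A search for 145 loci of known transcription factor families and pathways found 21 in the deposited tables, 18 up and 3 down, of which 19 were among the 40 genes. None of the 24 genes left out by name was among the 145, so the shares below are not those of whole families. Of the 17 AP2/ERF loci searched (RAV genes included) 8 were found, and of the 20 WRKY loci searched 5, all up and all among the 40. Both lists were made without the genes of these families left out by name. WRKY13, of the down table, and RAP2.4 were not on them either, so these counts and their direction describe the lists alone. Of 21 heat shock factor loci, 2 were found, and of 22 MYB loci, MYB51 up and MYB34 down. MYB23, of the down table, was not on the MYB list. Of 4 CONSTANS-like loci, COL2 was found, and of 12 GRAS loci, SCL13. None of 11 HD-Zip loci, 6 bZIP loci of abscisic acid signalling, 5 bHLH loci of jasmonate signalling or 3 calmodulin-linked loci was listed. MYC2, a listed factor left out by name, was not among the 5 bHLH loci. A gene absent from the deposited tables was not shown to be equal between the genotypes.

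The only locus found among 15 of the circadian clock was PRR3, a pseudo-response regulator that is not among the 40. Its signals were 483 ± 41.0 in OE and 224 ± 8.98 in KO (SD, n = 3 each). The only locus found among 9 bHLH loci of growth and light was PAR1, an inhibitor of growth-promoting bHLH factors in shade, with signals of 141 ± 43.9 in OE and 297 ± 30.5 in KO (SD, n = 3 each).

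The 40 genes lay on all 5 chromosomes, between 6 and 11 on each, and several had a listed gene as their next protein-coding neighbour in RefSeq's order. AT1G25550 (chr1:8976643-8977942, plus strand) and TEM1 (chr1:8981890-8982976, minus strand) were neighbours on opposite strands, and both were in the up table. Their alignments were 3947 bases apart, on the deposited table's own build. Replicate 2 was the brightest OE array for both.

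ERF-1 had ERF6 as its neighbour, one of the ERF genes left out by name. ERF6 had signals of 410.5, 774 and 818 on the OE arrays, against 48.4, 246 and 135 on the KO arrays. Its KO arrays kept the order of those of ERF-1, with replicate 1 far the lowest and replicate 2 the highest. These genes are related in sequence, and whether their probe sets share signal was not tested.

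Other neighbours stood in opposite tables. MYB34, of the down table, lies beside RLK1 (AT5G60900), which had signals of 1143 ± 291 in OE and 355 ± 118 in KO (SD, n = 3 each). ERF13, of the up table, lies beside AT2G44830, which had signals of 42.5 ± 12.7 in OE and 179.7 ± 87.4 in KO (SD, n = 3 each).

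Near the limits that chose the genes, the smallest folds of the authors' deposited table were 2.02 for MYB34, 2.03 for AT2G44940 and 2.07 for BZIP34. The largest unadjusted p-values of the authors' deposited table were 0.0499 for ERF13, 0.0484 for ERF104, 0.0482 for ERF-1 and 0.0444 for WRKY54. Just outside, 152 probe sets of the arrays had a fold between 1.9 and 2 with a p that met the limit, and 111 had a fold of at least 2 with a p between 0.05 and 0.06; these have no gene name here.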

How the data were processed

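Signals are the authors' deposited intensity values of 22810 probe sets on 6 ATH1 arrays, summarised by MAS5 per the submitters' processing notes (no version given). The authors also deposited an up and a down table, 567 probe sets in all, each with a p-value and a fold (ratio). Among all probe sets 954 met the limits of both, so the listing used more than these; the deposited p matched an equal-variance comparison of log2 signals to within 1.06e-06, and the direction was taken from the signals. Their 48 columns of per-array values match no sample and were not used.

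The genes and the lists were chosen with earlier results of these data known. Families came from gene titles and RefSeq descriptions. Every gene is named; values of each array are given for the gene with the largest deposited fold in each direction of each family, for the down table and for the 10 largest folds, and other genes that stand out were chosen after their values were seen. Neighbours came from RefSeq (TAIR10.1). Promoter, protein and probe sequences were not used here.

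Log2(signal + 16) was fitted with limma 3.58.1 in R 4.3.3 (lmFit, eBayes with trend, genotype as the only term) without 64 controls and without probe sets at or below the 30th percentile of mean level. This left 15922 and all 40 genes. P-values were two-sided and Benjamini-Hochberg adjusted over all 15922. Depth does not apply to arrays: their number limits the precision. The labels give no scan or extraction batch. Alternatives changed the pseudocount, filter, scaling, replicate block, arrays used, RNA quality covariate and test.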

Additional observations from a re-analysis of the deposited data

How the results depend on the processing

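Every one of the 40 genes kept its direction in all 15 alternative settings, although a filter at the 50th percentile left 28 and 3 of them in the test. For many of these settings this was fixed beforehand. No gene's OE and KO arrays overlapped, so leaving out an array, changing the pseudocount or comparing means could not turn the sign. The filters and the replicate block left each estimate unchanged. Of 600 values recomputed, 573 moved by less than the spread between replicates or not at all, 27 by more, and none changed sign. Most of the 27 were in the fit with the ratio covariate, those of WRKY54, ERF-1, HSFA4A, CZF1 and MYB23 among them. The median log2 difference ran from 1.18 (pseudocount of 64) to 1.57 (ratio covariate) for the genes of the up table, and from -1.16 (without OE replicate 1) to -0.80 (arrays shifted to the same median) for those of the down table. The counts of calls depended far more on the setting. Genes called higher, 24 as reported, were 12 with the controls' 3′ to 5′ ratio in the fit, 20 with no filter and 7 to 24 with each array left out. They were 32 with all arrays shifted to the same median and 30 with quantile normalization, where 4.99% and 3.44% of all probe sets were called higher. With the 50th-percentile filter they were 28 and with a pseudocount of 64 they were 26, against 4.85% and 3.06% of all probe sets. In the equal-variance comparison of means 0 were called, where all 33 had an unadjusted p under 0.05. Genes called lower, 2 as reported, were 0 with no filter on dim probe sets, 1 with the replicate block, 0 with the ratio covariate and 0 to 4 with each array left out. They were 3 with a pseudocount of 64. In the equal-variance comparison 0 were called lower, where all 7 had an unadjusted p under 0.05. Both of these unadjusted counts were fixed beforehand, since the authors' p-value that chose the genes matched this comparison. With the ratio covariate, 32 of the 33 and 2 of the 7 genes had an unadjusted limma p under 0.05. With the replicate block, 21 genes were called higher, but the replicate numbers did not pair the arrays: deviations of OE and KO arrays of the same number correlated at -0.24, -0.12 and 0.06 over probe sets. Over all probe sets, 483 higher and 293 lower as reported became 794 and 143 with all arrays shifted to 1 median (the median difference was then 0.09, against -0.08 as reported), 238 and 37 with the block, 261 and 76 with no filter, 189 and 19 with the ratio covariate, and 0 and 0 in the equal-variance comparison. With each array left out, 66 to 548 were higher and 7 to 852 lower. The cause of these changes was not tested. The planned search of promoters for motifs was not run, since promoter sequences were not used here. Signals of WRKY13, ERF13, MYB23 and BZIP34 were low, so their folds are understated on this scale.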
